A study of Homo sapiens with 6 samples.

Results

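The genes described here are 9 parts of the machinery by which cell-surface receptors set the level of cAMP: 5 G protein-coupled receptor genes, 2 inhibitory G alpha subunit genes and the 2 beta-arrestin genes. They were taken by symbol from a table of 30960 genes, and all 9 symbols were found once. The receptor genes are ADRB1 (beta-1 adrenergic receptor), ADORA2B (adenosine A2B receptor), PTGER4 (prostaglandin E2 receptor EP4), LPAR1 (lysophosphatidic acid receptor) and F2R (the thrombin receptor PAR1). The other members are GNAI1, GNAI2, ARRB1 and ARRB2. The cells were HEK293, an established line from human embryonic kidney, and their RNA was sequenced 48 h after plasmid delivery.

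The study had 2 groups of 3 libraries, A, B and C. The PKI group received a plasmid encoding PKI1-24, named for the inhibitor of protein kinase A (PKA), fused to GFP. The control group, inPKI, received one encoding inPKI1-24 fused to GFP. Both groups therefore received plasmid (158 ng per square centimetre, with a lipid transfection reagent) and made a GFP fusion, and no untransfected group was analysed here. The treatment protocol speaks of transfection and the design text of transduction. The share of cells that took up plasmid is not given in the sources used here, so each library averages over an unknown mix of cells. The labels do not state whether A, B and C are separate cultures, so p-values reflect the spread of these 6 libraries only, and that spread may be technical.

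A Gs-coupled receptor, when it binds its ligand, activates adenylyl cyclase, and the cAMP that is made releases the catalytic subunits of PKA, which PKI binds and blocks. Inhibitory G alpha subunits act against adenylyl cyclase, and beta-arrestins bind receptors that have been phosphorylated and end their coupling to G proteins. PKA stands at the receptor as well as downstream of it, since it phosphorylates receptors such as the beta-adrenergic ones and also the transcription factor CREB, which binds the cAMP response element of promoters. ADRB1, ADORA2B and PTGER4 are coupled mainly to Gs, while LPAR1 couples to Gi, Gq and G12/13 proteins and F2R to Gq and G12/13 and also Gi.

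Reads were recovered from the deposited CPM (reads of a gene scaled to library size), and 1 read was worth 0.0333 to 0.0437 CPM. Over the 30960 genes they summed to 17244715 to 23589438 a library, which need not be the full sequencing depth. The CPM summed to 754299 (PKI C) to 785007 (PKI B), so they were not scaled to these sums of reads alone. At PKIA, which encodes PKI alpha, the PKI libraries averaged 43.9 ± 1.96 CPM and the control libraries 9.68 ± 1.46 CPM (SD, n = 3 each). The libraries thus separate into the labelled groups at this gene, which does not by itself show which plasmid a group received. Counts at this gene do not tell plasmid reads from the cells' own. Replicates were not copies of each other: the chi-square per gene between libraries of a group was 2.27 to 3.71 among the inPKI pairs and 12.3 to 35.5 among the PKI pairs, where sampling alone gives about 1. PKI C differed from PKI B by 35.5 and was lowest of the 6 libraries in 39.4% of the 14275 genes tested. All 8 markers listed for the HEK293 line reached 1 CPM in at least 3 libraries, with summed levels of 898 to 921 CPM in inPKI and 797 to 911 CPM in PKI. Of the leukocyte markers 1 of 6 in the table reached 1 CPM (sums of 1.68 to 2.54 and 2.23 to 2.55 CPM, CD3E at 0), of the fibroblast markers 2 of 6 (18.9 to 21.0 and 19.4 to 22.7 CPM, DCN at 0) and of the keratinocyte markers 3 of 6 (28.9 to 54.8 and 26.2 to 31.5 CPM, the highest in inPKI C). The part of inPKI C in the members' values was checked only by leaving it out. In bulk RNA, fewer cells of a type and less RNA per cell cannot be told apart.

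The ends of the coding sequences of the inhibitory G alpha genes are shown because this stretch meets the receptor and holds the cysteine that pertussis toxin modifies, and because the genes must be told apart by their reads. Each line gives the last 10 codons and the stop codon from GENCODE 29 transcripts, 5′ to 3′, with the cysteine codon, 4 codons from the end, in capitals. GNAI3, the other gene of this subfamily, is shown for comparison.
GNAI1: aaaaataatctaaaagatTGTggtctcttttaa
GNAI2: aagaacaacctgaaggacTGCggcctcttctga
GNAI3: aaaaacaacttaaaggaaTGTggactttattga

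Over their whole coding sequences GNAI1 and GNAI2 were identical at 73.6% of 1065 aligned bases, and the longest run of bases shared by their longest coding transcripts was 24. ARRB1 and ARRB2 were identical at 75.2% of 1206 aligned coding bases, with a longest shared run of 23. GNAI1 and GNAI3 were the closest of these pairs, with 80.8% identity and a longest shared run of 29. The read length is not given in the sources used here.

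Promoters were searched for the core of the cAMP response element, TGACG, on both strands (CGTCA on the printed strand where the match is on the other), and for the whole element TGACGTCA, which contains it. RefSeq windows of 250 bases before the gene start on GRCh38.p14 were found for 7 of the 9 members. They came to 15 windows in all, since a gene can have several starts. No window was available for F2R and ARRB1, so these genes were not searched. The whole element was in 0 of the 15 and in 1.65% of all 35116 promoter windows. The core was in 5 of the 15 windows, 1 each for 5 members, and in 21.2% of all windows. The windows of PTGER4 and GNAI1 held no core. The 30 bases around each match are printed to show where a CREB core lies in these genes, with the core in capitals. Names are followed by the place of its first base, counted from the gene start.
ADRB1 at -86, chr10:114043768-114043797, plus strand: gctgcaggagccTGACGcgaggccccgggg
ADORA2B at -226, chr17:15944892-15944921, plus strand: cgagctcgagcgTGACGggaagttggggca
LPAR1 at -31, chr9:111037643-111037672, minus strand: ctcgcttcccacTGACGactcggttgtccc
GNAI2 at -233, chr3:50246665-50246694, plus strand: tcgggcctgccaCGTCAgctggctgctctt
GNAI2 at -48, chr3:50246850-50246879, plus strand: actgaagggaagTGACGacacagcggaaag
ARRB2 at -84, chr17:4710536-4710565, plus strand: gcgcgatccggcTGACGcatctggccccgg

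These matches are letters in a window and no measure of CREB binding. The LPAR1 and GNAI2 matches lie before 1 of the several starts that RefSeq gives each gene, and the table of counts per gene does not say which start was used. The starts are those of RefSeq. In GENCODE 29 the ARRB2, LPAR1 and GNAI2 matches lie inside the gene, the ADORA2B match lies just before its start, and the ADRB1 match lies before its start.

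The members differed in level far more than between the groups. Levels of different genes are compared here as CPM per kilobase of the median coding transcript in GENCODE 29. On that scale ARRB2 was highest, at 47.8 ± 0.667 in inPKI and 45.4 ± 4.03 in PKI (SD, n = 3 each), followed by GNAI2 at 24.5 ± 0.705 and 22.9 ± 1.40. F2R, the highest receptor gene, stood at 14.2 ± 0.444 and 14.4 ± 1.11, ahead of ARRB1 at 11.0 ± 0.117 and 10.9 ± 0.574 and ADORA2B at 10.7 ± 0.380 and 10.6 ± 0.732. The ranges of ARRB1 and ADORA2B over the 6 libraries overlapped, so their order is not set, whereas all other neighbours in the order had ranges that did not overlap. GNAI1 at 8.15 ± 0.628 and 7.87 ± 0.184, and LPAR1 at 3.35 ± 0.304 and 3.58 ± 0.248, came next. ADRB1 at 0.155 ± 0.0124 and 0.214 ± 0.0543, and PTGER4 at 0.0344 ± 0.0219 and 0.0763 ± 0.0520, were lowest. The order rests on the length used: per kilobase of all exons merged, GNAI2 fell to the fourth place at 6.94 in inPKI, behind F2R at 7.44 and ADORA2B at 7.27, with overlapping ranges. GNAI1, whose merged exons span 24206 bases, then measured 0.862 in inPKI. F2R has 2 coding transcripts with a median of 2131 bases, the longer having 3821 bases. Its place above ADORA2B, whose 1 coding transcript has 1735 bases, therefore rests on the length used for F2R. Ranges over libraries do not cover the choice of length.

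**Figure D1:**
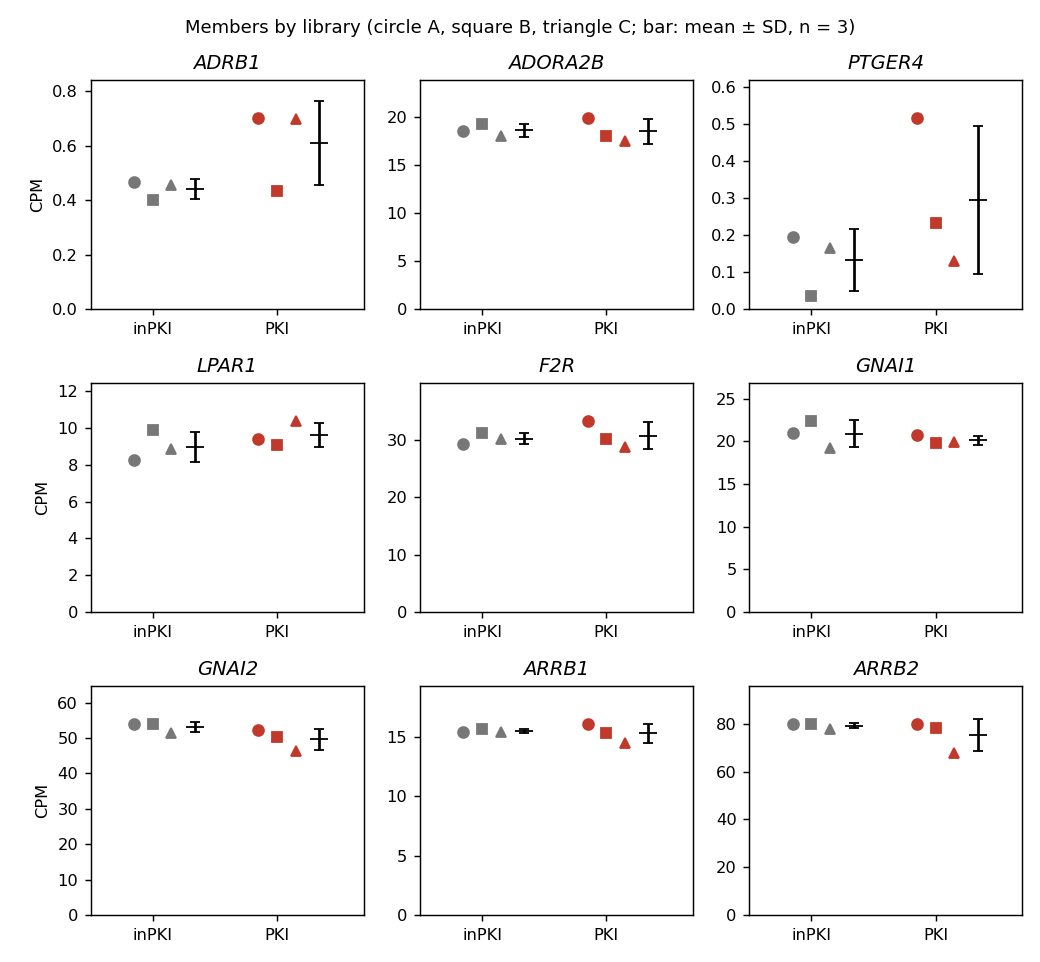
CPM (vertical axes, linear from 0, scaled to each gene) of the 9 members in the 3 inPKI libraries (grey) and the 3 PKI libraries (red), with the library letter as the symbol and the group mean ± SD beside it. The groups overlap in all 9 panels, and the triangle of PKI C is the lowest point for ADORA2B, F2R, GNAI2, ARRB1 and ARRB2.

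The first comparison asked whether the RNA of these genes differs between the PKI and the control fusion. No difference was detected at an adjusted p below 0.05 in limma for the 7 members that were tested. ADRB1 and PTGER4 were too low for that fit and are described below. Of the 9 genes, 7 had at least 1 CPM in at least 3 libraries and entered the limma fit, and 0 of the 7 passed an adjusted p of 0.05, where 0.126% of all 14275 genes tested did. At an unadjusted p below 0.05 there were also 0 of the 7, against 13.7% of all genes tested, and edgeR and DESeq2 each gave 0 past the threshold and 0 at an unadjusted p below 0.05. DESeq2 gave no adjusted p for 2 of the 7, LPAR1 and ARRB1. The groups overlapped in all 9 members, while they did not overlap in 19.7% of the genes tested. Of the 7 log2 changes (differences of mean log2(CPM + 1), positive where PKI is higher) 2 lay above 0 and 5 below, with a median of -0.017, beside -0.0074 over all genes tested.

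Of the 3 members coupled mainly to Gs, ADORA2B entered the fit, and ADRB1 and PTGER4 did not. The A2B receptor responds to the high adenosine of stressed tissue. ADORA2B (ENSG00000170425.3, chromosome 17, 15944917 to 15975746 in GRCh38) measured 18.5, 19.3 and 18.0 CPM in inPKI A, B and C and 19.9, 18.0 and 17.5 CPM in PKI A, B and C. The highest and the lowest library were both PKI libraries, with the inPKI libraries between them. Its log2 change was -0.0077 ± 0.0735 (SE), with a 95% interval of -0.16 to 0.15 and an adjusted p of 0.975. Changes of CPM + 1 beyond 0.892-fold and 1.11-fold lie outside the interval.

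ADRB1, the target of noradrenaline in the heart, is a gene of 1 exon (ENSG00000043591.5, chromosome 10, 114044056 to 114046908). It gave 12, 11 and 11 reads in inPKI A, B and C and 19, 13 and 16 in PKI A, B and C, that is 0.468, 0.401 and 0.455 CPM against 0.702, 0.433 and 0.700 CPM. PKI A and PKI C were above all inPKI libraries and PKI B was among them. Summed over libraries, 34 reads stood against 48, a PKI to inPKI ratio of 1.36 with an exact 95% interval of 0.860 to 2.18 that covers counting error only. The gene missed the filter of 1 CPM. With no filter its limma adjusted p was 0.668.

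PTGER4, the prostaglandin E2 receptor that immune cells use widely, was barely detected (ENSG00000171522.5, chromosome 5, 40679498 to 40693735). It had 5, 1 and 4 reads in inPKI A, B and C and 14, 7 and 3 in PKI A, B and C, or 0.195, 0.0365 and 0.165 CPM against 0.517, 0.233 and 0.131 CPM. PKI C lay between inPKI libraries, and PKI A alone held 14 of the 24 PKI reads. The summed ratio was 2.32 (95% interval 1.07 to 5.43, counting error only), and without PKI A it was 1.46 (0.545 to 3.91). With inPKI B left out the ratio was 1.66 (0.745 to 4.06). Leaving out any 1 of the other 4 libraries gave ratios of 2.63 (without PKI B) to 3.10 (without inPKI A), with lower bounds of 1.06 to 1.28. With no filter its limma adjusted p was 0.641. In the authors' deposited table PTGER4 had a log2 change of 1.21 ± 0.595 (SE, turned here to PKI over inPKI), with a p-value of 0.0419 and an adjusted p of 0.9999. This log2 change and the summed ratio need not rest on the same counts. The mean signal of PTGER4 was 70.9 in that table, against a mean here of 5.57 recovered reads, scaled to equal library sums. That table called 14 of 21299 genes with an adjusted p (0.0657%), and each of the 9 members had an adjusted p of 0.9999 in it.

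**Figure D2:**
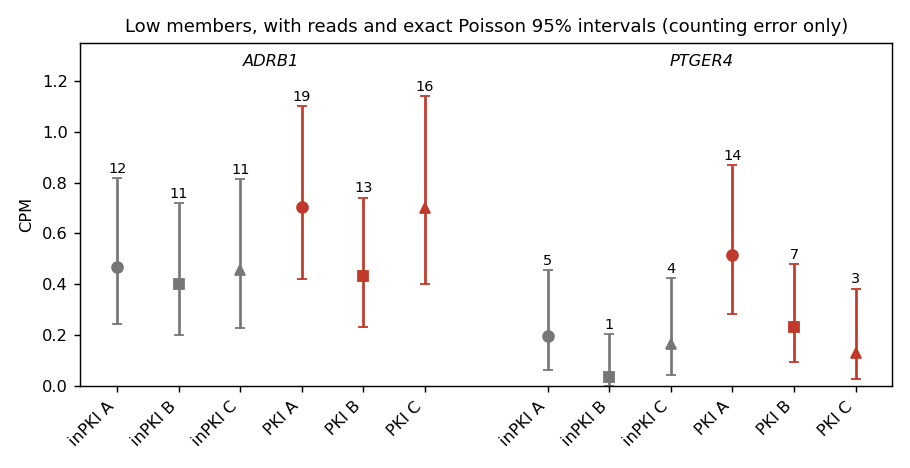
CPM of ADRB1 and PTGER4 in each library (vertical axis, linear), with exact Poisson 95% intervals that cover counting error only and the number of reads above each bar. The intervals of all 6 libraries overlap for ADRB1, and for PTGER4 the 14 reads of PKI A stand above the 1 read of inPKI B without overlap.

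The receptors that signal mainly through other G proteins were also close between the groups. LPAR1, the receptor for the serum lipid lysophosphatidic acid (ENSG00000198121.13, chromosome 9, 110873263 to 111038458), measured 8.27, 9.88 and 8.85 CPM in inPKI and 9.42, 9.08 and 10.4 CPM in PKI, in the order A, B, C. PKI C was the highest and inPKI A the lowest. The log2 change was 0.088 ± 0.0941 (SE), with a 95% interval of -0.11 to 0.29 and an adjusted p of 0.704, the widest interval of the 7. The log2 change was 0.035 without inPKI A, 0.039 without PKI C and 0.15 without inPKI B. F2R, which thrombin switches on by cutting it (ENSG00000181104.6, chromosome 5, 76716043 to 76735781), measured 29.3, 31.2 and 30.2 CPM in inPKI and 33.3, 30.2 and 28.7 CPM in PKI. As for ADORA2B, PKI A was highest and PKI C lowest. Its log2 change was 0.020 ± 0.0670, with an interval of -0.12 to 0.16 and an adjusted p of 0.923. An antisense gene, AC025188.1, overlaps an exon of F2R, and the strand setting of the counting is not given in the sources used here.

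Neither inhibitory G alpha gene passed the threshold. GNAI2 (ENSG00000114353.16, chromosome 3, 50226292 to 50259355) encodes a G alpha i subunit present in most tissues, and measured 54.0, 54.0 and 51.3 CPM in inPKI A, B and C and 52.3, 50.2 and 46.3 CPM in PKI A, B and C. PKI B and PKI C lay below all inPKI libraries and PKI A did not. The log2 change was -0.097 ± 0.0592 (SE), with a 95% interval of -0.22 to 0.029 and an adjusted p of 0.482, and without PKI C the log2 change was -0.049. GNAI1 (ENSG00000127955.15, chromosome 7, 79768028 to 80226181), prominent in brain, measured 21.0, 22.4 and 19.2 CPM in inPKI and 20.7, 19.8 and 19.9 CPM in PKI. All 3 PKI libraries fell inside the range of the control libraries. Its log2 change was -0.047 ± 0.0725, with an interval of -0.20 to 0.11 and an adjusted p of 0.806. GNAI3, which is outside the 9 genes, averaged 87.4 ± 5.36 CPM with PKI against 86.5 ± 1.02 CPM in the control (SD, n = 3 each; limma adjusted p = 0.940).

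Neither beta-arrestin gene passed the threshold. ARRB2 (ENSG00000141480.17, chromosome 17, 4710489 to 4721499) measured 80.0, 79.8 and 78.0 CPM in inPKI and 80.0, 78.3 and 67.6 CPM in PKI. The PKI SD of 6.69 CPM was well above the 1.68 CPM that counting alone gives, and comes from PKI C. The log2 change was -0.077 ± 0.0632 (SE), with a 95% interval of -0.21 to 0.058 and an adjusted p of 0.609, and the log2 change was -0.0024 without PKI C and -0.12 without PKI A. ARRB1 (ENSG00000137486.16, chromosome 11, 75264182 to 75351705) measured 15.4, 15.7 and 15.4 CPM in inPKI and 16.1, 15.3 and 14.5 CPM in PKI. PKI A was above and PKI B and PKI C were below all inPKI libraries. The inPKI SD of 0.166 CPM lies under the counting SD of 0.777 CPM and understates the error. Its log2 change was -0.017 ± 0.0737, with an interval of -0.17 to 0.14 and an adjusted p of 0.942. The antisense gene AP001972.2 overlaps an exon of ARRB1.

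**Figure D3:**
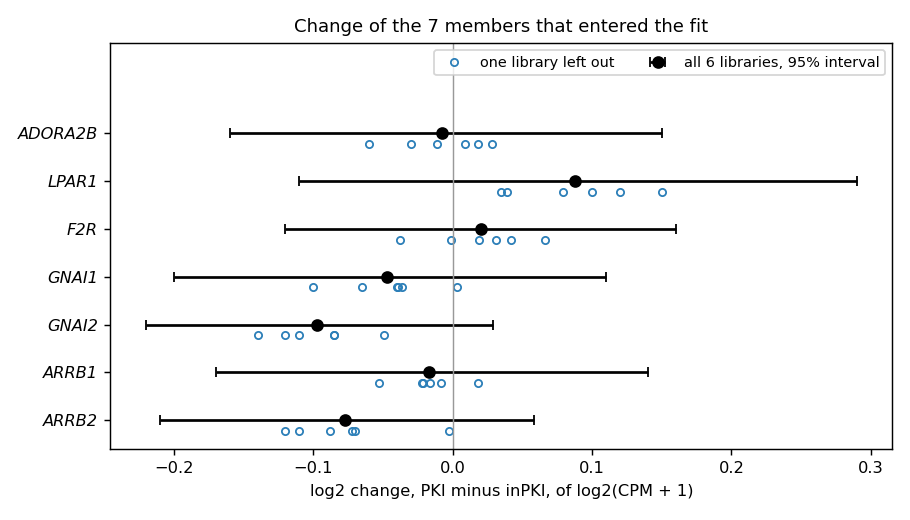
Log2 change of log2(CPM + 1), PKI minus inPKI, of the 7 members that entered the fit (horizontal axis), as black points with 95% intervals from limma and, below each, open circles for the 6 fits with 1 library left out. Every interval includes 0, and the lowest bound is -0.22 for GNAI2 and the highest 0.29 for LPAR1.

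PKI C moved with several of these values. It was the lowest of the 6 libraries in 5 of the 7 members and in 39.4% of all genes tested. After each column was scaled to the same total it was lowest in 3 of the 7 members and in 30.1% of genes. Its part in the members' values beyond the leave-out fits was not tested.

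The second comparison was of the balance within each pair of related members, as the share of 1 gene in the summed CPM of its pair. This share does not depend on how a column is scaled. The pair of GNAI1 and GNAI2 leaves out GNAI3, whose mean CPM was higher than that of either gene in both groups. The GNAI1 share is therefore not its share of the whole subfamily. GNAI1 made up 28.0%, 29.3% and 27.2% of GNAI1 plus GNAI2 in inPKI A, B and C and 28.3%, 28.3% and 30.1% in PKI A, B and C. PKI C was the highest, and the other PKI libraries lay within the control range. The means differed by 0.709 percentage points (28.2 ± 1.06% and 28.9 ± 1.001%, SD, n = 3 each), with a 2-sided exact permutation p of 0.400. ARRB1 made up 16.2%, 16.4% and 16.5% of ARRB1 plus ARRB2 in inPKI and 16.8%, 16.3% and 17.7% in PKI. Here too PKI C was highest, and PKI B lay within the control range. The difference was 0.580 points (16.4 ± 0.174% and 16.9 ± 0.686%), with an exact permutation p of 0.300. With 3 libraries against 3 this test cannot go below 0.1. The differences moved with single libraries. For GNAI1 the difference was 0.132 points without PKI C, 0.222 without inPKI C and 1.28 without inPKI B. For ARRB1 it was 0.208 points without PKI C and 0.883 without PKI B.

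**Figure D4:**
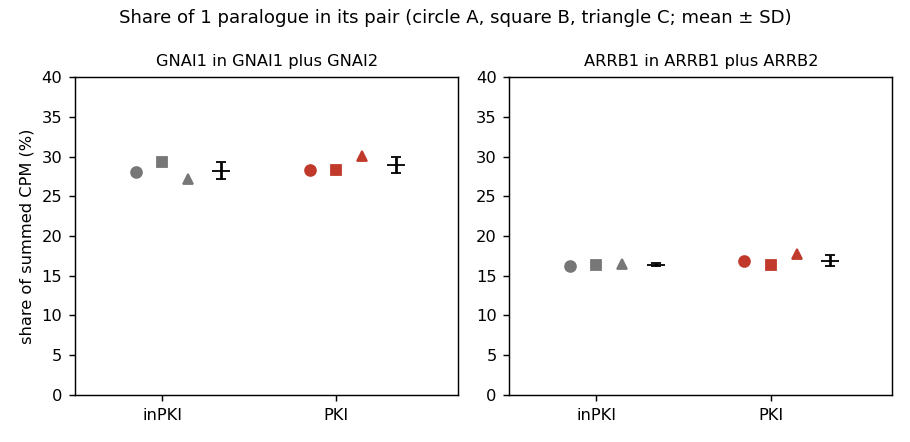
Share in percent of GNAI1 in the summed CPM of GNAI1 and GNAI2 (left) and of ARRB1 in that of ARRB1 and ARRB2 (right), by library and with the group mean ± SD (vertical axes from 0). The triangle of PKI C is the highest point in both panels, at 30.1% and 17.7%.

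The third comparison was of the genes around the members, in 7 lists that hold 131 genes, of which 116 rows were in the table and 74 entered the fit (the symbol RGS5 stands for 2 of those rows). In limma 0 of the 74 passed the threshold and 5 had an unadjusted p below 0.05, that is 6.76% against 13.7% of all genes tested. The counts were 0 and 4 in edgeR and 0 and 2 in DESeq2, which left 52 of the 74 without an adjusted p. The groups did not overlap in 5 of the 74 with PKI higher and 6 with PKI lower, against 10.9% and 8.88% of genes tested. The median log2 change over the lists was 0.0043.

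Of 10 tested genes among the other Gs-coupled receptors, 0 passed and 0 had an unadjusted p below 0.05, with a median log2 change of 0.033. The smallest p was that of ADORA2A, which encodes another adenosine receptor, at 5.50, 8.61 and 6.87 CPM in inPKI and 8.75, 8.45 and 7.79 CPM in PKI (log2 change 0.24 ± 0.125, SE, adjusted p = 0.414). The control library inPKI B lay among the PKI libraries. In the list of other lysophospholipid and protease-activated receptors 0 of 7 passed (0 at an unadjusted p below 0.05, median 0.046). LPAR3, another lysophosphatidic acid receptor gene, had the smallest p there, its log2 change being -0.14 ± 0.0797 (adjusted p = 0.445).

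Among the other G alpha subunits of the i, q and 12 classes, 0 of 7 passed and 1 had an unadjusted p below 0.05 (median 0.025). That gene was GNAO1, which encodes the G alpha o subunit abundant in neurons, at 12.1, 10.2 and 11.5 CPM in inPKI and 14.6, 13.4 and 12.7 CPM in PKI. The groups did not overlap, PKI being the higher, and the log2 change was 0.25 ± 0.0875 (SE) with an adjusted p of 0.239. In the 12 tested G beta and gamma genes 0 passed and 1 had an unadjusted p below 0.05 (median -0.054), namely GNG4, a gamma subunit gene, with a log2 change of -0.13 ± 0.0620 and an adjusted p of 0.362.

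Of 10 receptor kinase genes and arrestin relatives 0 passed and 2 had an unadjusted p below 0.05, both lower in PKI (median -0.013). Both encode alpha-arrestins, relatives of the beta-arrestins. TXNIP, which binds thioredoxin and restrains glucose uptake, measured 17.1, 17.2 and 17.6 CPM in inPKI and 15.8, 14.4 and 13.4 CPM in PKI, with no overlap (log2 change -0.24 ± 0.0775, SE, adjusted p = 0.214). ARRDC3, chosen after its values were seen, had a log2 change of -0.22 ± 0.0994 (adjusted p = 0.343). The other alpha-arrestin genes of the list, also named after their values were seen, had log2 changes of 0.14 (ARRDC1, adjusted p = 0.517), 0.14 (ARRDC2, 0.472) and -0.090 (ARRDC4, 0.629). In the 18 tested rows for RGS proteins, which speed the return of G alpha subunits to rest, and other G alpha regulators, 0 passed and 0 had an unadjusted p below 0.05 (median 0.015). RGS10 had the smallest p, with a log2 change of -0.15 ± 0.0872 (adjusted p = 0.457).

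The genes of ligand supply make or remove the receptors' ligands, and 0 of 10 passed, 1 with an unadjusted p below 0.05. Of the 10, 9 had a log2 change below 0, with a median of -0.099, beside 7504 of 14275 and -0.0074 over all genes tested. PKI C was the lowest of the 6 libraries in 6 of the 10, beside 39.4% of all genes tested. Leaving out any 1 library but PKI C left 8 or 9 of the 10 below 0, with medians of -0.12 to -0.074. Without PKI C 6 of the 10 lay below 0, with a median of -0.039. Over all genes tested without it, 43.9% lay below 0 and the median was 0.013, so the background had moved up as well. PLPP1, a phosphatase of lysophosphatidic acid and related lipids, measured 8.15, 7.70 and 6.20 CPM in inPKI and 5.76, 6.59 and 5.34 CPM in PKI. Its log2 change was -0.27 ± 0.115 (SE) and its adjusted p 0.318. The groups overlapped, since PKI B lay above inPKI C.

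**Figure D5:**
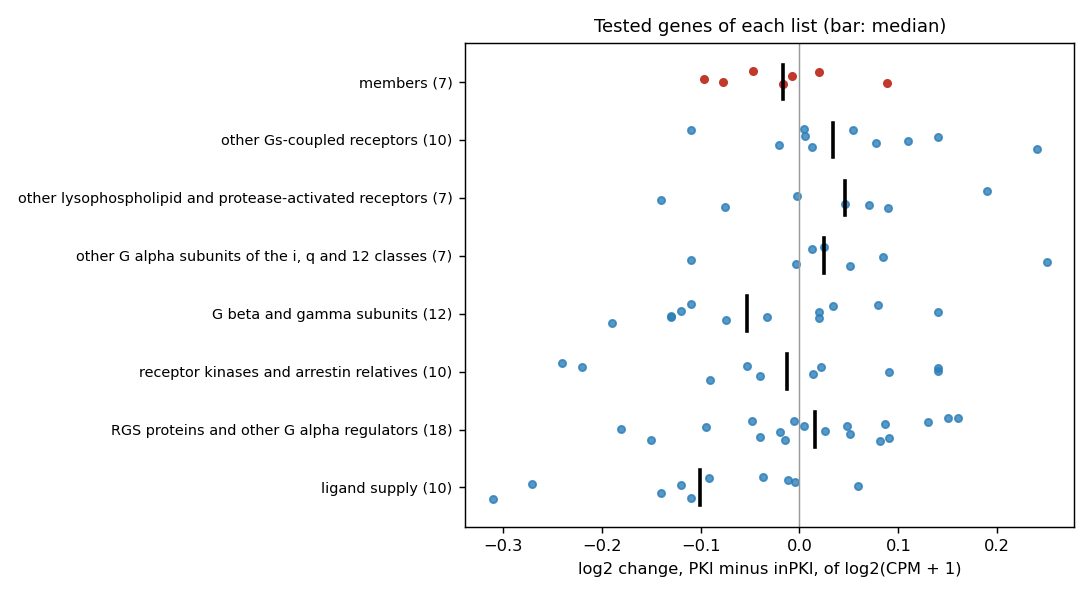
Log2 change of log2(CPM + 1), PKI minus inPKI (horizontal axis), of each tested gene in the 7 lists (blue) and of the 7 tested members (red), with a bar at each median and the number tested in brackets. The list medians lie between -0.099 and 0.046.

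GNAI2 had the largest log2 change of the members in limma with all 6 libraries (-0.097), but not in every alternative. LPAR1 had the larger change in edgeR and DESeq2 (0.10 against -0.090 in each) and with equal-sum rescaling (0.097 against -0.088), and so it did without inPKI B (0.15 against -0.085) and without PKI B (0.12 against -0.11), while F2R had it without PKI C (0.066 against -0.049) and reached the same size with sample weights (0.065 against -0.065). For GNAI2 the genes whose values over the 6 libraries were most alike were sought among 11060 tested genes of at least 5 CPM on average. The measure was the root mean square difference of log2(CPM + 1), each gene taken against its own mean. The nearest were SUMO3 (0.00907), SLC25A10 (0.0114) and ATP6V0E1 (0.0115), where the spread of GNAI2 itself was 0.0740. SUMO3, the gene of a small ubiquitin-like modifier, had 125, 124 and 118 CPM in inPKI and 122, 115 and 107 CPM in PKI. PKI C was lowest in both genes, but SUMO3 was chosen for its likeness to GNAI2, so this is no separate result. PKI C was also lowest in 39.4% of all genes tested.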

How the data were processed

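The authors deposited 1 table of CPM per gene for the 6 libraries, with RSEM, CPM and TMM in its name, and the tools listed in the submitters' processing notes, without roles, are STAR 2.5.2b, cutadapt 1.14, DESeq2 1.20.0 and RSEM 1.3.0, with the build hg19. Every value (100%, tolerance 0.01 reads) was a whole multiple of its column's smallest, which gave back whole reads.

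The authors' deposited comparison table holds, per the file headers, a mean signal, a log2 fold change with its error, a Wald score, p-values and a signed fold change (score). The log2FoldChange and FoldChange values have opposite signs in all 30960 rows, and log2 values are printed turned.

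The main test was limma 3.58.1 in R 4.3.3 (trend, 2-sided, Benjamini-Hochberg over 14275 genes) on log2(CPM + 1), which understates changes of low genes, for genes with at least 1 CPM in at least 3 libraries. Every adjusted p is from limma unless another source is named. edgeR 4.0.16 and DESeq2 1.42.0 ran on the recovered reads. On simulated data with the same spread set for both groups, limma recovered 57.3% of 1.25-fold and 97.3% of 2-fold changes. The PKI libraries here differed more among themselves than the inPKI ones, so these shares need not hold for them. Members and lists were chosen with earlier results of these data known. Named genes were the members, PKIA, each list's smallest p (up to 3 where genes passed) and the 3 genes most like the member with the largest change. Positions and lengths are from GENCODE 29 (GRCh38), not the authors' alignment, and promoters are from RefSeq.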

Additional observations from a re-analysis of the deposited data

Results flagged for a closer look

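The mean signal of PTGER4 in the authors' deposited table was 70.9. That is 12.7 times its mean of 5.57 recovered reads, scaled to equal library sums, in the 6 libraries analysed here. The same ratio had a median of 0.715 over the genes tested, with 95% of them between 0.314 and 6.86, and the other members lay between 0.409 (ARRB2) and 3.31 (GNAI2). PTGER4 itself was below the filter for tested genes. Of the genes tested, 1.38% had a ratio at least as high. There were also 2069 genes at 0 in all 6 libraries with a mean signal above 0 in the authors' deposited table. Where this signal comes from was not tested. The ratio was not compared between groups.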

How the results depend on the processing

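In all 17 alternatives 0 members and 0 genes of the 7 lists passed the threshold, and the adjusted p of the 7 tested members ranged from 0.343 to 0.9999 (2 were not given by DESeq2). Of 119 alternative log2 changes 107 kept their sign. The sign turned for ADORA2B with equal-sum rescaling (0.0013), sample weights (0.025), edgeR (0.00024) and DESeq2 (0.00015), and for ARRB1 with sample weights (0.013). With 1 library left out the log2 change ranged over -0.060 to 0.028 for ADORA2B, -0.038 to 0.066 for F2R, -0.10 to 0.0032 for GNAI1 and -0.053 to 0.018 for ARRB1. Its sign turned without inPKI B, PKI B or PKI C for ADORA2B, without inPKI A or PKI A for F2R, without inPKI B for GNAI1 and without PKI C for ARRB1. The count of all genes called was 18, and it was 4 with no filter on low values, 4 in limma without a trend, 11 with equal-sum rescaling (10 higher and 1 lower, against 14 and 4), 11 in edgeR, 144 with sample weights, 216 in DESeq2 (110 higher and 106 lower) and 9 to 121 with 1 library left out. The cause was not tested. Little pairing by letter was seen: deviations from the group means correlated at 0.01 to 0.03 between libraries of the same letter and -0.02 to 0.01 between others. With 3 libraries a group this check cannot exclude a pairing, and the labels do not state one. The replicate block gave 124 genes and 0 members. RefSeq transcript lengths were not used, and shares per kilobase of GENCODE transcripts, chosen after seeing the data, differed by 0.657 points for GNAI1 and 0.643 points for ARRB1. Depth limits ADRB1 and PTGER4, with 1 to 19 reads a library.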
